A study of Mus musculus with 116 samples.

Results

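The joins described here are those in which a broken chromosome end was sealed within 10 bp of a zinc-finger nuclease (ZFN) cut in mouse pro-B cells. They are the rows on chromosome 6, in the orientation that re-forms the locus, whose prey position lay no more than 10 bp from position 41554977 (mm10). This rule took 66793 of the 125900 joins listed for the 18 ZFN libraries, and of the 2482573 rows in the 132 join lists of the series. It uses position alone, so the form of each join (which bases each end kept, gained or shared) was not used to choose it.

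The cells were v-Abl-transformed pro-B cells, a model of early B-cell precursors kept dividing by a viral tyrosine kinase. The cells of all 18 libraries carried an Emu-Bcl2 transgene. They were arrested in G1 by 96 h of STI-571 at 3 µM, an inhibitor of that kinase. The ZFN against the locus labelled Eb was induced with doxycycline at 2 µg/ml. Each of the 6 groups held 3 libraries. The groups were Lig4-/- clone D, Lig4-/- clone D with Lig4 added back (+Lig4), Lig4-/- Ku70-/- clones D1 and D2, and each of those clones with Ku70 added back (+Ku70). Every group therefore carried the Lig4-/- genotype, and no wild-type control at this site was analysed. Clones D, D1 and D2 are 1 clone each. The labels do not say how D1 and D2 were derived, nor whether replicates were separate cultures, so spreads and p-values measure only the differences between these libraries. Expression of Ku70 and Lig4 was not measured in these libraries, and the genotypes rest on the labels.

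Classical non-homologous end joining is the main route for sealing double-strand breaks in G1 cells. Ku70, with its partner Ku80, forms a ring that loads onto broken ends and protects them from resection, and ligase IV (Lig4) with XRCC4 seals them. Cells that lack these factors can still seal ends by alternative end joining, which often pairs short repeats exposed on resected strands, called microhomologies. ZFNs cut through the FokI nuclease domain, which leaves short 5' overhangs. A polymerase can fill in such an overhang, a nuclease can remove it, or the ends can be joined after losing further bases. In lymphocytes the polymerase TdT can also add untemplated bases that favour G and C. TdT was not measured here.

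The cut lies on chromosome 6 inside the Tcrb locus (chr6:40891296-41558371, GRCm38.p6 RefSeq), which encodes the T cell receptor beta chain. It falls between Trbc2, which ends 6796 bp before it, and Trbv31, which starts 2716 bp after it, where the gene table used lists no gene segment. Reads ran from a primer on one side of the cut (the bait) into the sequence beyond it (the prey). The 80 bases around the cut, chr6:41554937-41555016 (mm10, plus strand), are shown first because each join below is read against them. They were taken from aligned bases of the deposited reads, where at least 99.04% of reads gave the printed letter at every position and each position had at least 9670 aligned bases. The capitals mark the 4 bases read here as the overhang.

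break region: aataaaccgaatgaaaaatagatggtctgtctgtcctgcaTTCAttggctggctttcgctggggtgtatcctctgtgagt

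The bait ended at position 41554976 at the furthest, the last base before the capitals, and an intact prey began at 41554977, the first capital. Bait copies of the overhang were therefore listed as inserted bases. The length of the overhang was read from the data. In +Lig4 libraries, insertions that copied exactly the next 4 reference bases numbered 545, against 32 that copied 5. A join that restores the unbroken sequence cannot be told from an uncut chromosome, and no such row was listed.

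The joins that carry the results follow, each as the bait flank, the junction and the prey flank. Capitals mark inserted bases in joins A, B, C and D and bases shared by both ends (the microhomology) in E to J. Join K has neither and is in lower case. Most were chosen by rank within a group. Joins B and C were chosen after their values were seen, to show a copied overhang.

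join A (1 base inserted at intact ends, here A): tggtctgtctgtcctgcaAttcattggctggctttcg
join B (the first overhang base copied): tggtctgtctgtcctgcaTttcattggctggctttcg
join C (the whole overhang copied): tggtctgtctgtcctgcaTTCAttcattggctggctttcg
join D (overhang lost, GG inserted): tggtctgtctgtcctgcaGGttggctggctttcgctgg
join E (CA shared, 4 bp shorter): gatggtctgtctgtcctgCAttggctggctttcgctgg
join F (GC shared, 10 bp shorter): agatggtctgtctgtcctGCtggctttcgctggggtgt
join G (CTG shared, 13 bp shorter): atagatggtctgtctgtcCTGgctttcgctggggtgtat
join H (CTG shared, 18 bp shorter): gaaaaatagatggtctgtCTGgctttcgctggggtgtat
join I (CTG shared, 22 bp shorter): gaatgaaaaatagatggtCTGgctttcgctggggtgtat
join J (TGG shared, 27 bp shorter): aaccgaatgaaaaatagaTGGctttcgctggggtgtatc
join K (no base shared or inserted, 5 bp shorter): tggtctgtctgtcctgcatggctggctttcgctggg

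Libraries were each normalised to 600000 raw reads by the authors, and their lists held 161 to 17254 joins. Read names placed the libraries in 4 sequencing runs. All clone D libraries shared a run, as did all D1 libraries with and without Ku70, while D2 replicate 1 and D2 replicates 2 and 3 were in separate runs with their +Ku70 counterparts. D1 and D2 shared no run with clone D, so genotype and run cannot be told apart in comparisons with Lig4-/-. No read name occurred in more than 1 library. The D2 +Ku70 libraries held 310, 30 and 13 joins at the break, so shares in that group rest mainly on replicate 1. Rows are reads without molecular identifiers, and intervals cover counting error only.

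Joins at the break were scarce in Lig4-/- cells, and were abundant in cells with Lig4 added back and in both clones lacking Ku70 as well. Lig4-/- libraries had 22.8, 50.7 and 58.3 joins at the break per 100000 raw reads. With Lig4 added back they had 1472, 1377 and 1353. Lig4-/- Ku70-/- D1 libraries had 1147, 1184 and 1172, and D2 libraries had 1381, 1141 and 564. The lowest of these 9 libraries was above every Lig4-/- library. On the log2 scale, with 0.5 added to each count, the difference from Lig4-/- was 5.10 for +Lig4, 4.84 for D1 and 4.56 for D2.

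Ku70 add-back went with few joins at the break in both clones. D1 +Ku70 libraries had 61.3, 51.8 and 37.8 joins per 100000 raw reads, and D2 +Ku70 libraries had 51.7, 5.00 and 2.17. Neither group overlapped its parent clone. The log2 difference was -4.56 in D1 and -6.84 in D2, where it was -8.15 without +Ku70 replicate 1 and -5.89 without +Ku70 replicate 3. Over both clones it was -5.70 (exact permutation within clones p = 0.005, the smallest possible, Benjamini-Hochberg adjusted p = 0.0975 over 39 results). It ran from -6.36 to -5.23 as each library was left out in turn. The exact permutation p of 3 libraries against 3 is at least 0.1. All 5 single comparisons of abundance gave that exact permutation p (adjusted p = 0.170). In run 3, which holds 1 library a group, the D2 log2 difference was -4.74, and in run 4, which holds the 2 small libraries, it was -7.89.

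**Figure D1:**
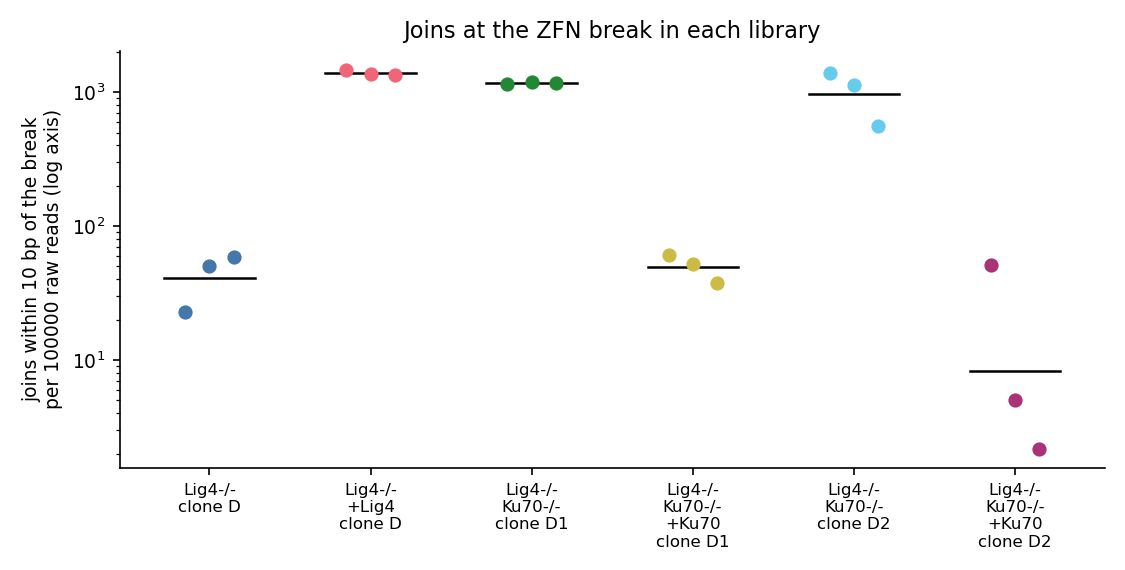
Joins within 10 bp of the ZFN break per 100000 raw reads on a log axis, with 1 point a library and a line at the geometric mean of each group of 3. The +Lig4, D1 and D2 libraries lie between 564 and 1472, and the Lig4-/- and +Ku70 libraries between 2.17 and 61.3.

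The share of a library's joins that lay at the break also differed between groups. It was 91.1% ± 0.399 (SD, n = 3) in +Lig4, against 46.4% ± 6.12 in Lig4-/-, 40.9% ± 1.11 in D1 and 48.4% ± 6.39 in D2. With Ku70 added back it was 29.7% ± 2.32 in D1 and 12.5% ± 3.87 in D2. Both +Ku70 groups lay below their parent clones with no overlap, a mean difference of -23.6 points (exact permutation p = 0.005, adjusted p = 0.0975). The double-deficient clones did not separate from Lig4-/-. The differences were -5.44 points in D1 (exact permutation p = 0.3, adjusted p = 0.355) and 2.04 points in D2 (p = 0.7, adjusted p = 0.718), and the groups overlapped. The D1 difference was -8.42 without Lig4-/- replicate 1 and -2.31 without Lig4-/- replicate 3. In D2 it turned to -1.20 without D2 replicate 3.

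Cells with Lig4 added back joined bait ends that had mostly kept every base up to the cut. The bait reached its last base in 69.2%, 68.8% and 69.6% of +Lig4 joins. In Lig4-/- it did so in 13.9%, 15.8% and 11.7% of joins. The means were 13.9% ± 1.54 in D1, 21.0% ± 4.89 in D2, 12.7% ± 3.04 in D1 +Ku70 and 15.3% ± 6.62 in D2 +Ku70. Every +Lig4 library was above every other library. End positions are described without tests, and bases shared by both ends were counted as kept on each side.

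Prey ends showed the overhang in different states. In +Lig4 libraries the prey started most often at the first base after the cut, with all 4 overhang bases kept (29.5%, 24.2% and 26.5% of joins), or exactly 4 bases further, with all of them lost (26.8%, 31.2% and 29.7%). In Lig4-/- those starts took 4.49% ± 2.14 and 2.61% ± 0.317. There the prey started mainly 5 bases past the cut (24.1%, 34.5% and 31.7%) or 8 bases past it (36.5%, 30.3% and 32.3%). The second of these starts opens the CTG of joins G, H and I.

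In D1 and D2 the prey starts were more evenly spread. The highest position in D1 was 9 bases past the cut, with 16.6% ± 1.40 of joins, and in D2 it was 8 bases past, with 15.5% ± 0.671. Prey starts 5 to 10 bases past the cut took 78.9% ± 2.64 of joins in D1, 71.2% ± 5.76 in D2 and 80.1% ± 2.43 in Lig4-/-, but 22.6% ± 0.357 in +Lig4. The limit of 10 bp cut through this spread. In D1, 2913 joins started 10 bases past the cut and 2911 started 11 bases past it, just outside, and in +Lig4 the counts were 367 and 169. Prey starts before the cut were rare, with 12 in all.

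Bait loss was also uneven. In Lig4-/- the bait lacked 2 bases in 21.7% ± 2.99 of joins, 11 bases in 16.8% ± 1.36 and 7 bases in 13.4% ± 5.14. In D1 the commonest bait loss was 15 bases, with 18.4% ± 1.61 of joins, against 6.14% ± 1.23 in Lig4-/- and 0.289% ± 0.00969 in +Lig4. D1 +Ku70 had 17.0% ± 1.07 at that position, close to its parent clone. D2 had 11.7% ± 3.79, with 8.33%, 15.8% and 11.03% in its libraries.

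**Figure D2:**
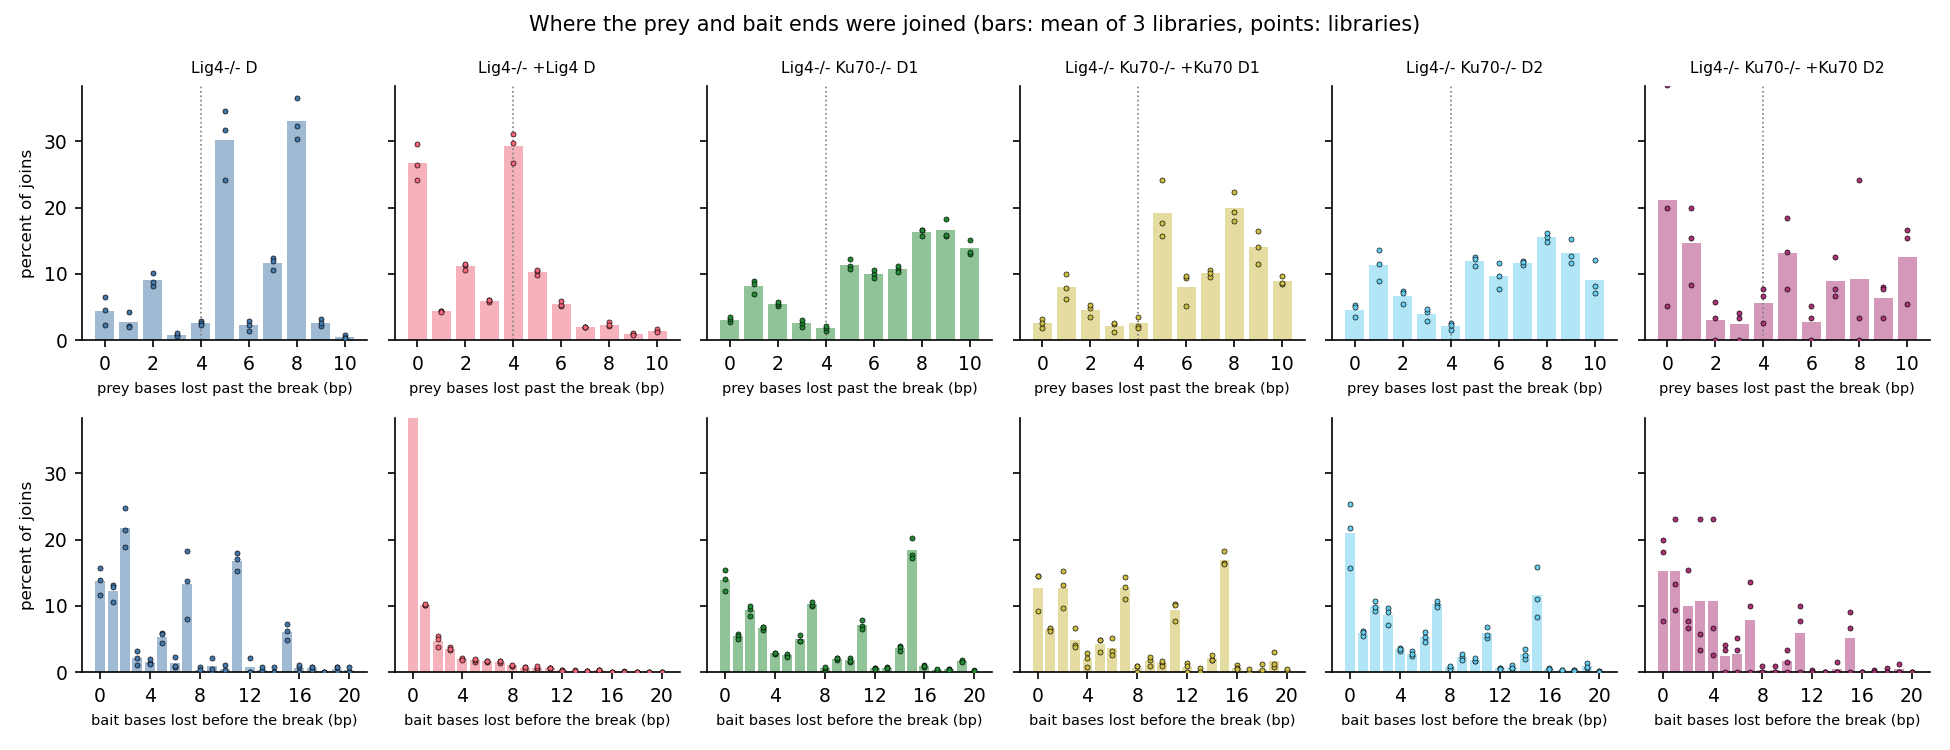
Percent of joins at the break by the number of bases lost from the prey side (top, dotted line at the 4-base overhang) and from the bait side (bottom, up to 20 bases), with bars at the mean of 3 libraries and a point for each. +Lig4 peaks at 0 and 4 bases on the prey side and at 0 on the bait side, while Lig4-/- peaks at 5 and 8 bases on the prey side.

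Each end was then put in a class and the classes were paired. A bait was called filled in when it ended at its last base and all inserted bases equalled the next reference bases. Any other bait that ended at its last base was called flush, even if its insertion began with copied bases. A bait that lacked bases was called cut back. A prey was called kept with the whole overhang, partial with 1 to 3 of its bases lost, lost at exactly 4, and past the overhang beyond that. With shared bases counted on each side, no pairing in +Lig4 had a mean above 17.5% of joins. Flush bait took 17.5% ± 1.74 with a kept prey, 14.2% ± 1.03 with a lost overhang and 17.1% ± 0.557 with a partial one, and filled-in bait with a kept prey took 4.52% ± 0.455.

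In the groups without Lig4, cut-back bait joined to prey past the overhang was the commonest pairing. It took 77.3% ± 2.68 of joins in Lig4-/-, 71.8% ± 3.22 in D1, 61.4% ± 7.77 in D2, 73.4% ± 5.41 in D1 +Ku70 and 50.2% ± 13.9 in D2 +Ku70, against 10.1% ± 0.375 in +Lig4. The pairing of flush bait with kept prey was near 0 in them, at most 0.219% ± 0.380. Intact ends joined without an insertion restore the unbroken sequence, which is not listed, and wholly copied insertions put the bait in the filled-in class. This pairing therefore follows the share of insertions that are not exact copies, and does not show how often intact ends were joined. Counting shared bases on the bait alone moved Lig4-/- prey with a lost overhang from 2.61% to 9.60% and put the cut-back and past pairing at 78.4%. In +Lig4 the same count put flush bait with a lost overhang at 22.6% ± 1.12, the commonest pairing there.

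Inserted bases were most common with Lig4 added back. They were present in 72.6%, 72.0% and 73.6% of +Lig4 joins and in 11.7%, 13.8% and 10.9% of Lig4-/- joins. The groups did not overlap and lay 60.6 points apart (exact permutation p = 0.1, adjusted p = 0.170). D1 had 6.29% ± 1.18 and D2 9.10% ± 2.27, below Lig4-/- by 5.83 and 3.02 points, and in neither comparison did the groups overlap (exact permutation p = 0.1, adjusted p = 0.170 for each). The D2 difference was -1.73 points without D2 replicate 2.

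Ku70 add-back gave 5.43%, 7.72% and 8.37% of joins with inserted bases in D1, against 5.00%, 6.57% and 7.30% without it. In D2 +Ku70 the libraries had 32 of 310, 9 of 30 and 5 of 13 joins with inserted bases, and D2 had them in 10.8%, 6.53% and 9.96% of joins. The 95% Wilson intervals were 16.7% to 47.9% in the second and 17.7% to 64.5% in the third. The mean difference over both clones was 9.02 points (exact permutation p = 0.075, adjusted p = 0.170). In run 3, with the largest D2 +Ku70 library, the difference within D2 alone was -0.491 points. The effects in D1 and D2 differed by -16.3 points (exact permutation p = 0.25, adjusted p = 0.336), and by -10.2 points without D2 +Ku70 replicate 3.

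The inserted bases were of different kinds. In D1, 84.6%, 86.7% and 86.4% of insertions copied the reference bases just after the bait, that is T, TT, TTC or TTCA, as a filled-in overhang would. In D2 the shares were 91.4%, 91.5% and 95.3%. In +Lig4 they were 12.4%, 11.7% and 11.96%. Lig4-/- had 16, 42 and 38 insertions in its libraries, of which 25.0%, 4.76% and 13.2% were such copies. D1 +Ku70 lay between, with 9 of 20, 13 of 24 and 13 of 19 insertions. In D2 +Ku70 the counts were 13 of 32, 1 of 9 and 0 of 5. In these terms, other insertions made up 64.0% ± 0.698 of all joins in +Lig4, 10.4% ± 2.37 in Lig4-/-, 3.06% ± 0.451 in D1 +Ku70, 0.879% ± 0.113 in D1 and 0.652% ± 0.243 in D2. D2 +Ku70 libraries had 6.13%, 26.7% and 38.5%, the last 2 from 8 of 30 and 5 of 13 joins.

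Copies were of different length as well. Among D1 joins, 803 copied 1 base, 229 copied 2, 100 copied 3 and 7 copied all 4. D2 had 1173, 278, 87 and 11. In +Lig4 the counts were 1242, 216, 166 and 545, so the full overhang was second to 1 base there. Join C, with the whole overhang on both sides of the junction, was seen 185, 119 and 135 times in the +Lig4 libraries. It was seen 1 time in Lig4-/- and 1 time in D2. In D1 it was seen in 0 of 21019 joins, which allows a share of up to 0.0143%.

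At ends that had lost nothing, the identity of an inserted base differed between groups. Of 2999 such joins with 1 inserted base in +Lig4, 1797 gained A (join A), 600 gained T (join B), 483 gained G and 119 gained C. Of 239 in D1, all gained T, the first overhang base. In D2, 338 of 339 gained T. The small groups had few, with T in 4 of 5 in Lig4-/-, 5 of 6 in D1 +Ku70 and 4 of 4 in D2 +Ku70. An added T cannot be told from a copied one here.

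Insertions that were not exact copies of the bases after the bait were GC-rich in +Lig4. Their G and C content was 64.7% ± 0.686 there, with a median length of 2 bases. In the other groups it was 34.1% ± 9.0 to 49.1% ± 5.16, from 26 to 313 inserted bases a library. Insertions of 6 bases or more were rarest in the double-deficient clones, with 0.428% ± 0.307 of insertions in D1 and 0.261% ± 0.233 in D2. This share was 8.65% ± 0.358 in +Lig4, 21.7% ± 7.94 in Lig4-/-, 12.8% ± 2.90 in D1 +Ku70 and 21.8% ± 18.4 in D2 +Ku70, where 1 of 32, 2 of 9 and 2 of 5 insertions were that long. Lig4-/- had 23 long insertions that were not such copies, and 6 of them matched either strand within 165 bases around the cut. Only whole insertions were matched. A 58-base insertion seen 3 times in Lig4-/- held a stretch of bait sequence and was not among the matches. In +Lig4, 73 of 1584 such insertions matched. Whether the matches exceeded those that chance gives was not tested.

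**Figure D3:**
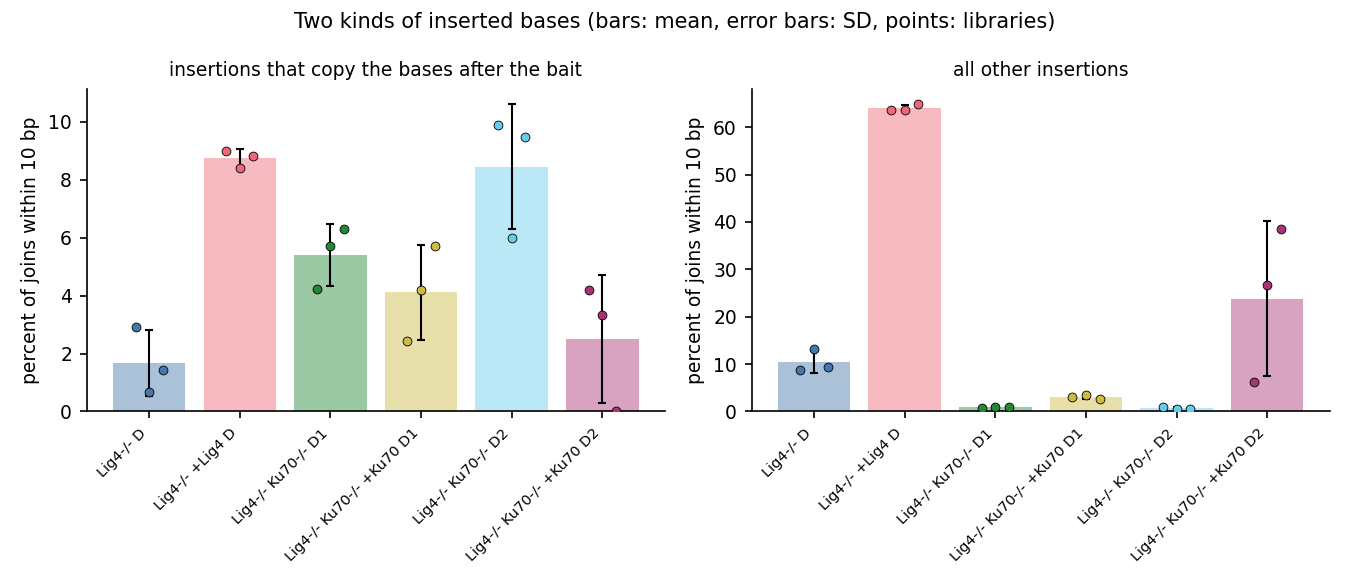
Percent of joins at the break with inserted bases that copy the sequence after the bait (left) and with any other insertion (right), on different scales, with bars at the mean of 3 libraries, SD error bars and a point for each library. Copies make up 5.41% of D1 and 8.45% of D2 joins, while other insertions make up 64.0% of +Lig4 joins and under 1% of D1 and D2 joins.

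Microhomology of 2 bp or more marked the joins of Lig4-/- cells. It was present in 73.7%, 73.0% and 75.4% of Lig4-/- joins, in 11.6%, 11.5% and 10.6% of +Lig4 joins, in 31.8%, 29.96% and 29.2% of D1 joins and in 25.1%, 28.1% and 24.3% of D2 joins. No library of the other 3 groups reached a Lig4-/- library. The difference from Lig4-/- was -62.8 points for +Lig4, -43.8 for D1 and -48.3 for D2 (exact permutation p = 0.1 for each, adjusted p = 0.170). The reference sequence offers an overlap of 2 bp or more in 21 of the 176 end pairs with a bait loss of 0 to 15 and a prey loss of 0 to 10 bases, which is 11.9%. This is not a chance rate. Ends trimmed at different bases of a shared stretch give the same product, so each overlap can arise from several trimmed pairs.

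D1 +Ku70 libraries had microhomology in 52.4%, 40.5% and 36.1% of joins, each above every D1 library. The difference was 12.7 points (exact permutation p = 0.1, adjusted p = 0.170), and 8.02 points without +Ku70 replicate 1. D2 +Ku70 libraries had 41.9%, 10% and 15.4%, and overlapped D2. The low values had Wilson intervals of 3.46% to 25.6% and 4.33% to 42.2%. The D2 difference was -3.37 points (exact permutation p = 0.8, adjusted p = 0.800), and it was 16.1 points with the largest library alone. Over both clones it was 4.68 points (exact permutation p = 0.46, adjusted p = 0.513), and 14.4 points with that library alone. The D1 and D2 effects differed by 16.1 points (exact permutation p = 0.175, adjusted p = 0.267), and by -3.40 points with that library alone.

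The clones lacking Ku70, with and without its add-back, had many joins with no inserted base and little or no overlap. Direct joins, with neither, made up 36.5%, 36.9% and 38.2% of D1 joins and 40.4%, 39.7% and 39.9% of D2 joins. They made up 29.2% ± 4.96 in D1 +Ku70 and 37.1% ± 8.43 in D2 +Ku70, but 6.67% ± 1.08 in Lig4-/- and 12.96% ± 0.280 in +Lig4. A 1 bp overlap, which chance also gives, was present in 26.8%, 26.6% and 25.4% of D1 joins and 23.7%, 25.7% and 25.8% of D2 joins. It was present in 20.6% ± 3.64 in D1 +Ku70 and 14.2% ± 1.06 in D2 +Ku70, against 7.15% ± 1.76 in Lig4-/- and 3.03% ± 0.239 in +Lig4. Lig4-/- libraries were below all libraries of these 4 groups in both measures.

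**Figure D4:**
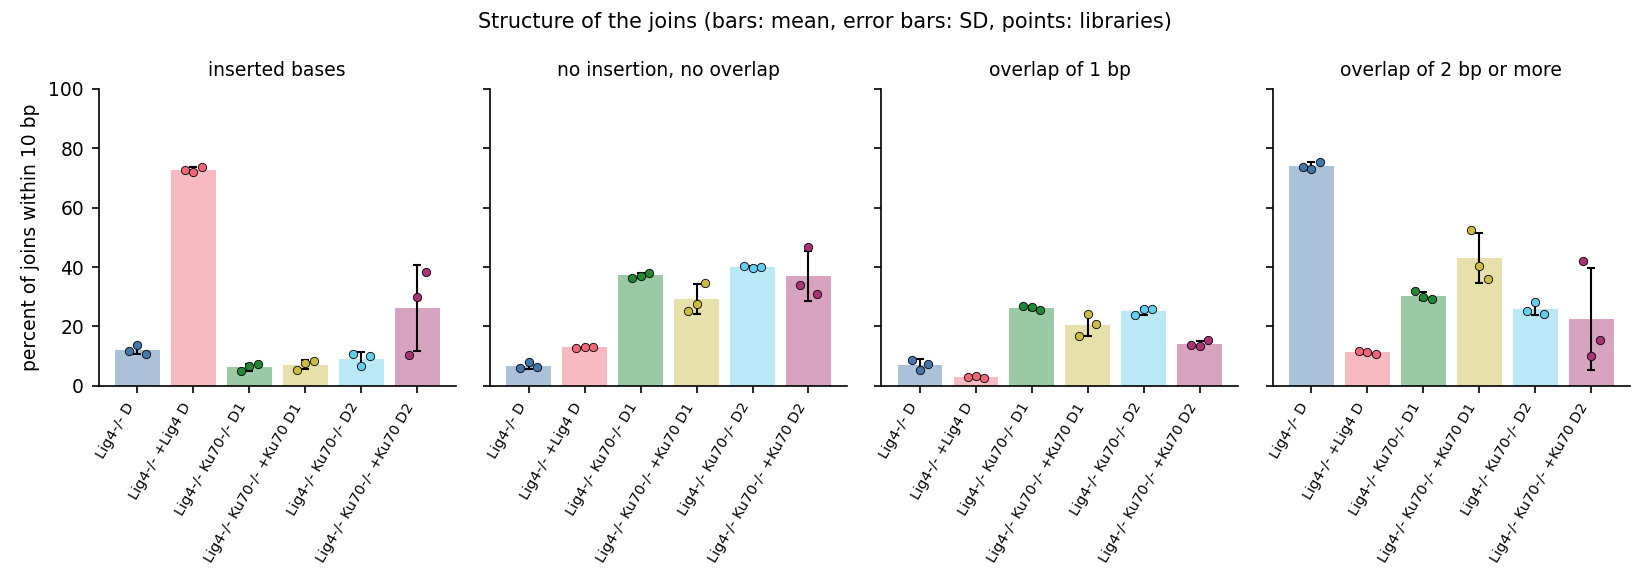
Percent of joins at the break with inserted bases, with neither insertion nor overlap, with an overlap of 1 bp and with an overlap of 2 bp or more, with bars at the mean of 3 libraries, SD error bars and a point for each library. Insertions reach 72.8% in +Lig4, overlaps of 2 bp or more 74.1% in Lig4-/-, and the 2 small D2 +Ku70 libraries lie away from the third.

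The same few microhomologies recurred in Lig4-/- cells. In joins G, H and I the same CTG on the prey side, 8 bases past the cut, was paired with 3 CTG copies on the bait side, at a loss of 2, 7 and 11 bait bases. Together they made up 32.8%, 27.3% and 29.4% of Lig4-/- joins. They made up 1.21%, 0.774% and 0.764% of +Lig4 joins, 9.53% ± 0.712 of D1 joins and 7.13% ± 1.08 of D2 joins. In D1 +Ku70 the values were 17.1%, 11.9% and 13.2%, each above every D1 library. D2 +Ku70 replicate 1 had 16.8%, above every D2 library, and the libraries with 30 and 13 joins held 1 and 0 of them.

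Join F, a 2 bp GC overlap that removes 10 bp, was among the 3 most frequent joins in every group but +Lig4. Its share was 9.83% ± 1.59 in Lig4-/-, 4.24% ± 0.309 in D1, 4.92% ± 0.531 in D1 +Ku70, 4.40% ± 0.355 in D2 and 0.461% ± 0.0332 in +Lig4. In D2 +Ku70 its rank rests on 21 of 310, 0 of 30 and 1 of 13 joins. Join E, a CA overlap that removes 4 bp, was common with and without Lig4. Join E has the same sequence as a flush bait joined to a prey that lost the whole overhang, and the 2 cannot be told apart. It had 8.37%, 8.66% and 7.96% in +Lig4 and 8.03%, 7.24% and 8.29% in Lig4-/-, and the ranges overlapped. It had 2.81% ± 0.0700 in D1 and 3.75% ± 0.705 in D2.

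Joins J and K were among the frequent joins of the double-deficient clones but were not limited to them. Join J, a TGG overlap that removes 27 bp, had 5.74%, 4.04% and 4.39% in D1 and 1.89%, 3.59% and 1.57% in D2, against 2.27% ± 0.324 in Lig4-/-. Join K, a direct join at a flush bait, had 2.86%, 2.48% and 2.99% in D1 and 5.17%, 3.46% and 3.99% in D2. It was seen 3 times in 791 Lig4-/- joins. A join that shared only 1 base (G) and was 26 bp shorter had 3.68% ± 0.411 in D1 and 2.28% ± 0.800 in D2, and was seen in 0 of the 791 Lig4-/- joins, which allows up to 0.379%.

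In +Lig4 libraries the most frequent joins sat at the cut. Joins with 1 inserted base at intact ends had 12.9%, 10.7% and 12.04% there, and 48.4% of such joins over all libraries carried the sequence of join A. Joins with a lost overhang and 2 inserted bases had 4.59%, 5.35% and 5.22%. The commonest form of such joins over all libraries was join D, which 27.4% of them carried.

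The joins changed the length of the locus in different ways. A product longer than the unbroken locus was present in 33.4%, 28.3% and 30.99% of +Lig4 joins, and in 3.05% ± 0.839 of Lig4-/-, 1.36% ± 0.449 of D1 and 2.25% ± 0.597 of D2 joins. The difference of +Lig4 from Lig4-/- was 27.8 points, without overlap (exact permutation p = 0.1, adjusted p = 0.170). D1 had fewer gains than Lig4-/- in every library, by 1.69 points (exact permutation p = 0.1, adjusted p = 0.170). D2 overlapped Lig4-/- (difference -0.802 points, exact permutation p = 0.3, adjusted p = 0.355), and the difference was -0.354 without Lig4-/- replicate 2 and -0.460 without D2 replicate 2.

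A shorter product was present in 65.5% ± 2.53 of +Lig4, 96.0% ± 1.41 of Lig4-/-, 98.6% ± 0.449 of D1 and 97.7% ± 0.592 of D2 joins. Among shorter products the median loss was 4 bp in each +Lig4 library and 13 bp in each Lig4-/- library. It was 16, 15 and 14 bp in D1 and 11, 14 and 12 bp in D2. Ku70 add-back gave 15, 14 and 14 bp in D1 and 11, 6 and 4 bp in D2, where the 6 and 4 are from the small libraries. Gains with Ku70 added back differed by 1.11 points (exact permutation p = 0.265, adjusted p = 0.345) and losses by -2.37 points (exact permutation p = 0.135, adjusted p = 0.219), both within the spread of libraries.

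Single lengths stood out in clone D. In +Lig4 a gain of 1 bp took 15.7% ± 1.23 of joins, a loss of 4 bp 12.9% ± 0.436 and a loss of 2 bp 10.4% ± 0.405. In Lig4-/- a loss of 18 bp took 15.9% ± 4.04, a loss of 13 bp 12.4% ± 5.77 and a loss of 10 bp 11.4% ± 1.32. In D1 no length took more than 5.45% ± 0.464, the value at a loss of 22 bp, and in D2 none took more than 7.48% ± 1.55, at a loss of 5 bp.

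**Figure D5:**
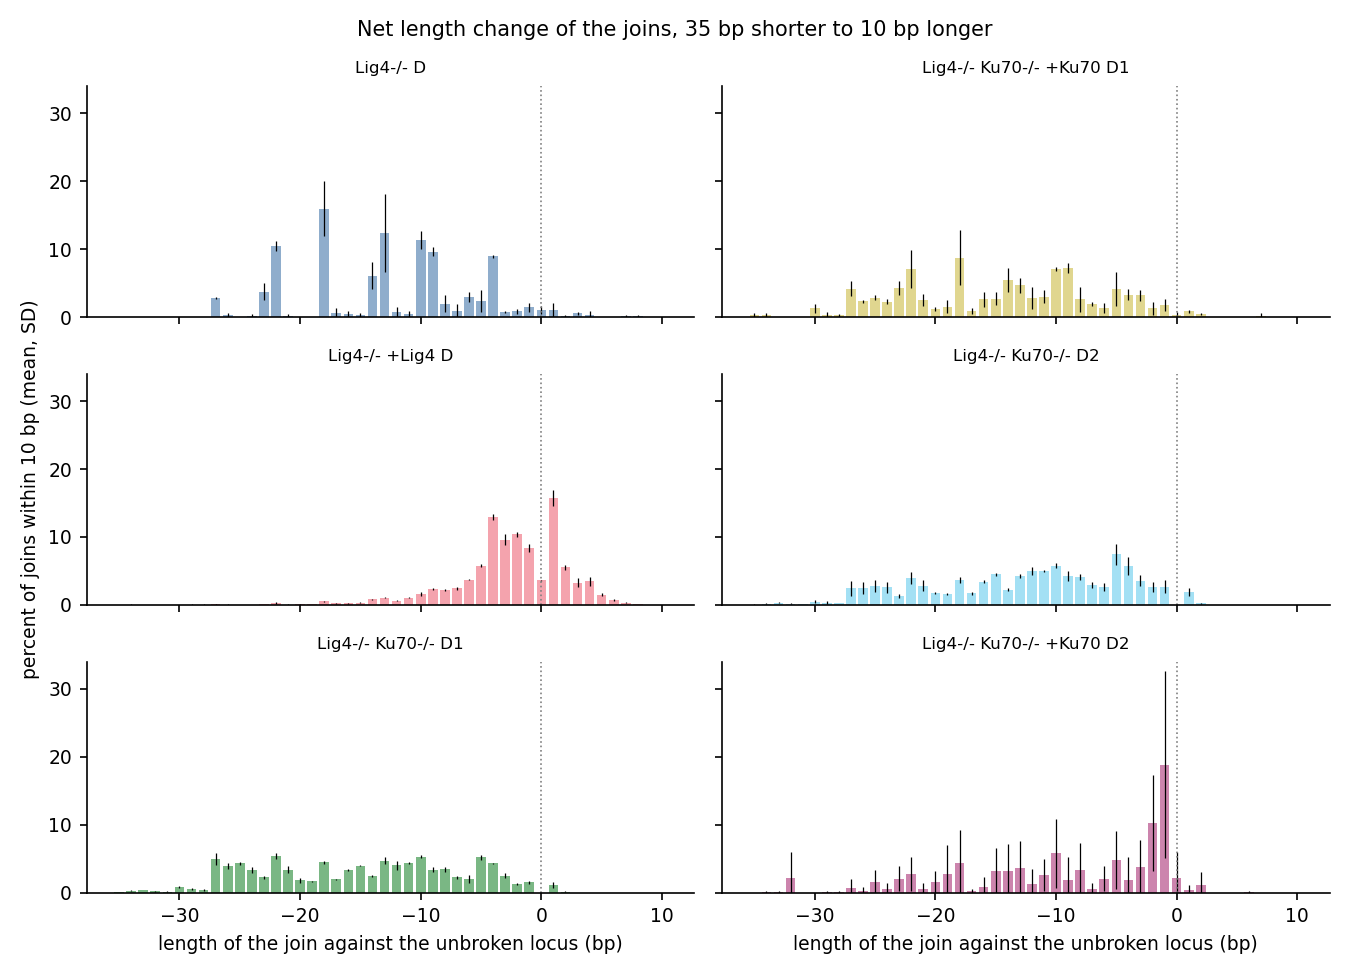
Percent of joins at the break by length of the product against the unbroken locus, from 35 bp shorter to 10 bp longer, with bars at the mean of 3 libraries and SD error bars, and a dotted line at 0. +Lig4 centres near 0 with 15.7% at a gain of 1 bp, Lig4-/- has separate peaks at losses of 10, 13 and 18 bp, and D1 and D2 are spread more evenly over losses.

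Recurrence was counted over distinct joins, meaning a bait end, a prey start and the letters inserted. The +Lig4 libraries held the most kinds. In an average draw of 100 joins, 72.3, 72.7 and 72.7 distinct joins were expected in the +Lig4 libraries, 29.8, 32.6 and 32.5 in Lig4-/-, 51.6, 53.5 and 53.8 in D1 and 52.2, 53.4 and 52.9 in D2. D1 +Ku70 had 44.5, 50.9 and 52.0. Lig4-/- was thus the least varied and +Lig4 the most, with no overlap between these groups, or between either and D1 or D2. The 10 most frequent joins made up 72.9% ± 1.32 of Lig4-/- joins, 34.3% ± 2.45 of D1 joins, 32.8% ± 1.91 of D2 joins and 29.8% ± 0.583 of +Lig4 joins.

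Joins recurred between replicates. In D1, 166 of 423 distinct joins were present in all 3 libraries and made up 97.7% of rows, and in D2 152 of 364 made up 97.5%. In +Lig4, 476 of 3742 made up 77.7%, and in Lig4-/- 13 of 115 made up 75.9%. D1 and D2 shared 262 distinct joins, which is 61.9% of those of D1 and 72.0% of those of D2, and these held 99.05% and 99.33% of their rows. D1 +Ku70 shared 115 distinct joins with D1 (85.2% of its own list and 27.2% of the D1 list) and 117 with D2 (86.7% and 32.1%). It shared 39 with Lig4-/- (28.9% and 33.9%) and 102 with +Lig4 (75.6% and 2.73%). The lists came from 21019 joins in D1, 18513 in D2, 25211 in +Lig4 and only 791 in Lig4-/-. The shared percentages depend on this depth and do not rank the groups by likeness.

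Reads with the same junction and the same prey alignment end can be copies of 1 molecule or recurrent joins. Distinct fragments of this kind made up 55.2% ± 0.435 of rows in +Lig4, 81.2% ± 6.52 in Lig4-/-, 68.7% ± 0.922 in D1, 72.4% ± 4.51 in D2 and 94.9% ± 1.05 in D1 +Ku70. Identical fragments also occurred between libraries. Of D1 +Ku70 fragments, 45.1% ± 3.30 were also in a D1 library of the same run, and 31.7% ± 6.03 in a D2 library of another run (9 pairs of libraries each). Of Lig4-/- fragments, 23.7% ± 3.15 were also in a +Lig4 library of the same run and 34.8% ± 2.60 in a D1 library of another run. Whether any fragment passed between libraries was not tested.

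Joins at the break were compared with longer prey deletions of the same libraries, those in the same orientation whose prey lay 11 bp to 100 kb past the cut. Microhomology of 2 bp or more in the longer deletions was 76.8% ± 5.65 in Lig4-/-, 23.1% ± 4.99 in +Lig4, 24.9% ± 0.527 in D1, 22.9% ± 0.379 in D2, 39.3% ± 8.08 in D1 +Ku70 and 57.8% ± 11.2 in D2 +Ku70. It was higher at the break in 11 libraries and lower in 7, and the difference ran from -51.5 to 6.40 points. Every D1, D2 and D1 +Ku70 library was higher at the break, and every +Lig4 and D2 +Ku70 library was lower. Lig4-/- libraries went both ways. A mean over all groups therefore mixes opposite directions and does not describe any group. Pooled over the 18 libraries of all groups, the mean difference was -6.32 points (sign-flip permutation test p = 0.178, adjusted p = 0.267). It was -3.66 without D2 +Ku70 replicate 2 and -3.67 without D2 +Ku70 replicate 3, the libraries of 30 and 13 joins. Inserted bases were less frequent in longer deletions of +Lig4 (47.0% ± 2.28) than at the break (72.8% ± 0.823). This difference was not tested, and the shares are not measured alike. At the break the bait ended at 41554976 at the furthest, so copied overhang bases were listed as inserted. Over all ZFN joins the bait reached up to 41554986. Rejoining that restores the unbroken sequence is also missing from the joins at the break.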

How the data were processed

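Per the labels, genomic DNA was amplified from a bait primer at Eb without the enzyme blocking step, sequenced on a Nextseq and normalised by the authors to 600000 raw reads a library. The authors deposited JoinT-seq lists with 1 row per joined read (positions, alignment ends and the read); the submitters' processing notes name Bowtie2 and mm10, with no version. Rows were counted as deposited. Inserted bases lie between bait and prey alignments, and microhomology is an overlap of at least 2 bp on the read. Net length is bait end minus prey start plus 1 plus the read gap. Abundance is the log2 of joins plus 0.5 per 100000 raw reads. Group means were compared over libraries with two-sided exact permutation tests, with Benjamini-Hochberg adjustment over 39 results, in Python 3.11.15 with numpy 2.4.6, pandas 2.3.3 and scipy 1.17.1. Code was tested on simulated data: the shares of 18 simulated libraries were recovered and 50 permutation tests equalled scipy's. Named joins are the 3 with the highest mean share in each group and the most frequent gain, loss and unchanged length. Members and lists were chosen with earlier results of these data known. No test across many features was run.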

Additional observations from a re-analysis of the deposited data

How the results depend on the processing

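Of the alternatives that kept every library, 184 kept direction and side of the threshold (unadjusted p of 0.05), 10 turned direction and 3 passed it. The exact permutation p of 3 libraries against 3 is at least 0.1, so single comparisons could not pass the threshold. For them only a kept direction is informative. Values within runs had no p and were judged by direction and size. Counting each distinct join 1 time gave -1.63 points for the share at the break in D2 against Lig4-/-, -0.225 for insertions in D1 +Ku70 and -8.32 (permutation p = 0.0463) for microhomology near against far. With a window of 5 bp the D2 share gave -3.31, and D1 +Ku70 gains -0.676 and losses 0.305. With 20 bp the D2 share gave -1.42, and microhomology with Ku70 added gave 10.9 in D2 and 12.6 over both clones (exact permutation p = 0.02). That mean was -3.61 with overlaps of 1 bp counted. In D2 it was 0.314 over joins without insertions and 1.70 within runs. Insertions of 2 bases or more over both clones gave 8.45 (exact permutation p = 0.005). With the largest D2 +Ku70 library alone, an alternative chosen after seeing the data, microhomology was 16.1 in D2 and 14.4 over both (exact permutation p = 0.0125), gains -0.636 and -0.185, losses 0.645 and 0.0429, and the clone difference in microhomology -3.40. Leaving out each library in turn gave -1.20 to 5.19 for the D2 share, below 0 without D2 replicate 3 (-1.20) or Lig4-/- replicate 1 (-0.939). For +Ku70 over both clones it gave 5.97 to 13.0068 for insertions, -0.193 to 7.79 for microhomology, 0.245 to 1.76 for gains and -3.57 to -1.48 for losses, with the extremes -0.193, 13.0068, 1.76 and -3.57 without D2 +Ku70 replicate 1, 5.97 and 0.245 without its replicate 3 and -1.48 without its replicate 2. With replicate 1 out, exact permutation p was 0.025 for insertions and gains, 0.01 for losses and 0.005 for the clone difference in microhomology, and 0.025 for insertions (9.46) without D1 +Ku70 replicate 1. Microhomology in D2 ran from -13.1 to 2.85 (2.85 and 0.161 without D2 +Ku70 replicates 2 and 3), and the clone difference in it from 9.88 to 25.8. The causes were not tested. The labels number replicates alike across groups, but same-numbered libraries correlated at -0.251 to 0.269 over 46 end combinations, not above 0.1 in every pair, so the numbers were not taken to pair them. A replicate block changed no call, but its exact sign-flip p is at least 0.25 in single comparisons, which therefore could not change. This sign-flip p was 0.25 for each of the 5 single comparisons of abundance and 0.03125 over both clones. Depth limits the D2 +Ku70 shares most, with 30 and 13 joins in 2 of 3 libraries.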
